A study of Mus musculus with 12 samples.

Results

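Collagen chains and a set of other matrix proteins were followed in the kidney cortex of mice with and without a HIF2αM3 transgene. They were the 44 genes of the table whose symbol has the form of a collagen chain, together with 12 others, Fn1, Sparc, Bgn, Dcn, Lum, Postn, Lox, Loxl1, Mmp2, Timp1, Timp2 and Timp3, which made 56 of 27412 genes. Of the 56, 48 had enough reads to be tested. The 8 that did not were Col2a1, Col9a1, Col9a2, Col10a1, Col11a1, Col17a1, Col22a1 and Col28a1, each with between 4 and 49 reads summed over the 6 animals.

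All animals were untreated male C57BL/6 mice. The 3 wild-type animals are called WT 1, WT 2 and WT 3. The 3 transgenic animals, 17-51, 17-53 and 17-56, carried γ-HIF2αM3 (TG+), in which a γ-glutamyl transferase (GGT) promoter drives HIF2αM3 in proximal tubule cells. HIF2α switches on genes in low oxygen, and M3 is a mutated form built to escape oxygen-dependent degradation. RNA from a thin outer cortex slice of each of the 2 kidneys was sequenced, giving 12 libraries. The sources used here give neither age nor the number of founder lines. All transgenic names begin with 17, so a line effect and the transgene cannot be told apart if that number marks 1 line.

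The extracellular matrix is built in layers. Fibrillar collagens form the tension-bearing fibres of the interstitium, fibril-associated collagens and small leucine-rich proteoglycans coat and space those fibres, and lysyl oxidases cross-link them. Type IV collagen is the mesh of basement membranes, where a network of the α1 and α2 chains surrounds tubules and vessels and a network of the α3, α4 and α5 chains forms the mature glomerular filter. Metalloproteinases cut matrix proteins and the tissue inhibitors (Timps) restrain them. In kidney, interstitial collagen is made mainly by fibroblasts and pericytes, and its accumulation defines fibrosis.

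The promoters of the genes with the clearest difference between the genotypes are shown because the transgene codes for a transcription factor. Each is a RefSeq window of 300 bases, from 250 before to 50 after a gene's start, on build GRCm38.p6. Windows were found for 41 of the 56 genes (45 windows). The sequences are printed 5′ to 3′ on the gene's strand. Capitals mark the letters ACGTG or GCGTG, the core of the hypoxia response element, or their reverse complements CACGT and CACGC.
Col16a1, chr4:130047590-130047889, plus strand: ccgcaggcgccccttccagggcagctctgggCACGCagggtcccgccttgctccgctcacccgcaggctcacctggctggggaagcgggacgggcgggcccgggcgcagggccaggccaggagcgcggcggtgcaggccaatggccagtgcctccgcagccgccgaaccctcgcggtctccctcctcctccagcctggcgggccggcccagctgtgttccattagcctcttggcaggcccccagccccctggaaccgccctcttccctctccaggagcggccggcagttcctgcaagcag
Col5a3, chr9:20815018-20815317, minus strand: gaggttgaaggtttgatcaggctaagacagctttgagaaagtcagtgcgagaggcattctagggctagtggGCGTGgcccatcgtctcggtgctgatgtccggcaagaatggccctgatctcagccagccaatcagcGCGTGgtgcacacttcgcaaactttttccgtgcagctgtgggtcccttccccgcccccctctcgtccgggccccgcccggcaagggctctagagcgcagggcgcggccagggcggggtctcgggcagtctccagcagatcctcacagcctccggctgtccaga
Col19a1, chr1:24587388-24587687, minus strand: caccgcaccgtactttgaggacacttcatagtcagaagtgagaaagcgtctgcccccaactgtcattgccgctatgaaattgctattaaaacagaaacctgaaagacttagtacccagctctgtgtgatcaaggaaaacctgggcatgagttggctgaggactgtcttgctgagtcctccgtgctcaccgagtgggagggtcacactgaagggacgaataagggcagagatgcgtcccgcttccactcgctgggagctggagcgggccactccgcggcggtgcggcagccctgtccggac
Col27a1, chr4:63215162-63215461, plus strand: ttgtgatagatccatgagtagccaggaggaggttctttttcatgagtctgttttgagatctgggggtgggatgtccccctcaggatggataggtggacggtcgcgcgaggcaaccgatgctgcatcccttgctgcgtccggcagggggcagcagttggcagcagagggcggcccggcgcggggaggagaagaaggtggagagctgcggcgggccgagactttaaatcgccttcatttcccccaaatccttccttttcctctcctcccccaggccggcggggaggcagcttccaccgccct
The Col16a1 window held 1 GCGTG core and that of Col5a3 held 2, while the Col19a1 and Col27a1 windows held neither core. Of the 45 windows, 17 (37.8%) held 1 or both cores, against 43.8% of all 32851 RefSeq windows of that length. GCGTG was in 31.1% against 32.4%, and ACGTG in 13.3% against 19.6%. The GC box letters GGGCGG, on either strand, were in 27 of the 45 windows (60.0%) against 35.7% of all. The median GC content was 59.7% against 52.7%. CCAAT was in 35.6% against 37.4% and TATAAA in 13.3% against 13.6%. CAGAC, a Smad-binding core, was in 48.9% against 49.6%. All motifs were searched on both strands. ACGTG and GCGTG share 4 of their 5 letters but cannot start at the same base, and a match is a description of letters, not of a binding site.

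Col4a1 and Col4a2 are transcribed from opposite strands, and their windows overlap by 78 bases. The shared stretch is shown because it holds the annotated starts of both chains, with the GC box in capitals, on the strand of Col4a2.
Col4a1 and Col4a2, chr8:11312777-11312854, plus strand: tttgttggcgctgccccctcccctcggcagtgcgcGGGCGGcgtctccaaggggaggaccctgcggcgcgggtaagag

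Depth was similar between libraries apart from 1. Totals lay between 24032148 and 43499743 counts for 11 libraries, and kidney 2 of 17-51 had 4161829. Some libraries stood apart for the matrix genes. Kidney 2 of 17-56 was the highest of the 12 libraries for 25 of the 48 genes tested (52.1%, against 14.3% of all genes tested). Kidney 1 of WT 1 was the lowest for 25 (52.1%, against 12.1%). In kidney 2 of 17-56 the tubular injury gene Havcr1, named after its value was seen, was at 58.6 CPM (counts scaled by depth with TMM factors) against 8.18 CPM in kidney 1 and 1.02 to 8.77 CPM in the other 10 libraries. The injury gene Lcn2, named in the same way, was at 15.6 against 1.78 CPM, and Spp1, which encodes osteopontin, at 1738 against 769 CPM. The fat genes Adipoq (2.35 CPM), Cidec (4.73 CPM) and Plin1 (1.13 CPM) were detected in kidney 2 of WT 1 and were at most 0.1003 CPM in all other libraries. The part of these libraries in the results was not tested. Beside many of the results, values are also given without kidney 2 of 17-56 and the shallow kidney 2 of 17-51, or without WT 1.

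Few of the genes differed between the genotypes by themselves, while most leaned the same way. Of 48 tested, 3 collagens were higher in the HIF2αM3 cortex, Col16a1, Col19a1 and Col5a3, none was lower, and 45 did not pass (edgeR quasi-likelihood test on reads summed per animal, Benjamini-Hochberg adjusted p under 0.05 over all genes). That is 6.25% of the genes, against 3.75% of all 19564 genes tested (1.93% higher, 1.82% lower). The log2 fold change was above 0 for 34 and below 0 for 14, or 70.8% above against 50.9% of all genes. The median log2 fold change was 0.43, against 0.0049 over all genes, and the values ran from -0.92 to 1.30. An unadjusted p under 0.05 was found for 17 higher and 4 lower genes, 43.8% against 24.9% of all.

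The 3 HIF2αM3 animals all lay above the 3 WT animals for 19 of the 48 genes (39.6%, against 15.5% of all genes) and all below for 3 (6.25%, against 16.5%). The 3 below were Col27a1, Col20a1 and Col11a2. Over single libraries, all 6 HIF2αM3 libraries lay above all 6 WT libraries for 7 genes (14.6%, against 5.29%) and below for 1 (2.08%, against 6.5%). The 7 were Col14a1, Col15a1, Col16a1, Col19a1, Dcn, Fn1 and Lum, and the 1 was Col27a1. Col8a2 and Col6a4 passed the read filter through the HIF2αM3 animals, and Col25a1 and Col9a3 through the WT animals, so these 4 had an unequal chance of being tested. Col8a2 is 1 of the 19 genes above WT and 1 of the 17 higher genes at an unadjusted p under 0.05. It was tested only because of the group where it is high, so its place in these counts is not support. Col8a2 and Col6a4 are also among the 34 genes above 0. With no filter the median over all 56 genes was 0.33 and the same number, 3, was called. Of all 27412 genes in that setting 1003 were called (3.66%), and their median was 0.0085.

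**Figure D1:**
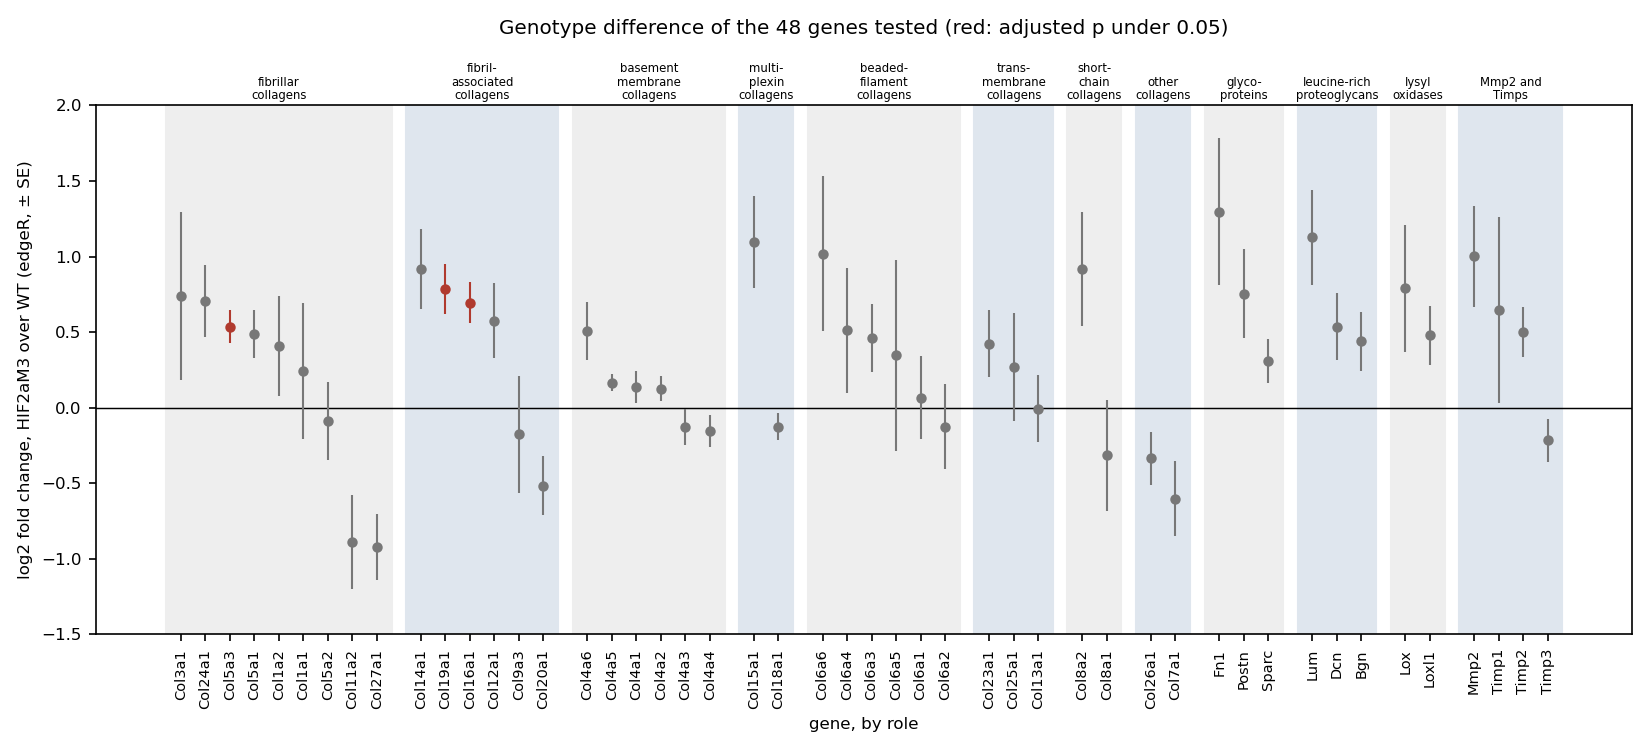
Log2 fold change of HIF2αM3 over WT (y axis, edgeR, bars are ± SE) for the 48 genes tested (x axis), grouped by role, with genes past the adjusted threshold of 0.05 in red. Most points lie above 0, Col16a1, Col19a1 and Col5a3 are red, and Col27a1 and Col11a2 lie lowest.

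Without kidney 2 of 17-56 and the shallow kidney 2 of 17-51, 31 of 48 genes were above 0, the median was 0.23 and 1 gene, Col19a1, was called. Of all 19470 genes tested there, 597 were called (3.07%), and the median over all of them was -0.0058. In that setting 17 genes had all HIF2αM3 animals above all WT animals (35.4%, against 14.5% of all genes) and 4 below (8.33%, against 15%). Without the animal 17-56 the median was 0.17, and without WT 1 it was 0.22. The direction of the median was positive in every alternative tried, and its size moved with these animals. In bulk tissue, fewer cells of a type and less RNA per cell cannot be told apart.

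Basement membrane, not interstitial, collagen dominated the collagen levels of the WT cortex. Levels of different genes are compared in the deposited RPKM (reads scaled by depth and by a length for each gene). The lengths used were not checked, and the order of genes depends on them. In WT, mean CPM was 26.6 for Col1a1 and 39.7 for Col1a2, the reverse of their order in RPKM. Levels and ratios between genes hold only for the lengths used. The collagens at the top were Col4a1 at 29.1 ± 2.09 RPKM (SD, n = 3 WT animals), Col4a3 at 24.2 ± 3.34, Col4a2 at 20.4 ± 1.23 and Col4a4 at 16.8 ± 2.13 RPKM. Col18a1, which yields the fragment endostatin and sits in basement membranes, followed at 9.39 ± 0.372 RPKM. The main fibrillar chains were lower, with Col1a1 at 2.15 ± 1.06, Col3a1 at 1.59 ± 0.997 and Col1a2 at 1.56 ± 0.584 RPKM.

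Timp3, an inhibitor that is bound to matrix, was listed far above all others at 373 ± 60.4 RPKM, or 68.5% of the summed RPKM of the 56 genes. Timp3 lies within Syn3, which is on the opposite strand with overlapping exons in the GRCm38 annotation. Since the sources used here do not give strand use in counting, Timp3 and Syn3 reads cannot be told apart. Syn3, a gene of nerve terminals, was listed at 1228 to 2017 CPM over the libraries. Biglycan (Bgn) was at 16.6 ± 4.85, Sparc at 13.8 ± 2.22, Timp2 at 10.7 ± 2.59 and decorin (Dcn) at 4.68 ± 1.49 RPKM. In all, 8 genes were at 10 RPKM or more, 13 from 1 to 10, 16 from 0.1 to 1 and 19 under 0.1 RPKM. Among neighbours in the upper part of the order, Timp3 and Col4a1, Col4a1 and Col4a3, and Col18a1 and Dcn did not overlap between animals, and the other neighbours from Col4a3 to Col18a1 did.

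**Figure D2:**
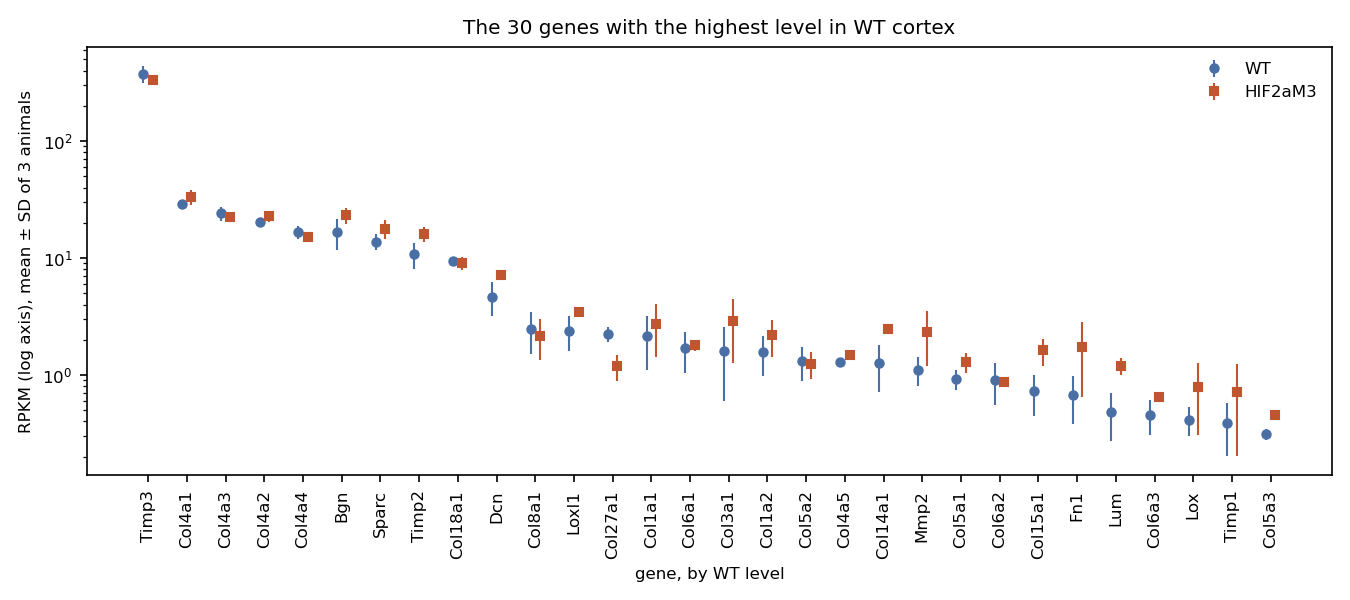
Level in RPKM (log axis, mean ± SD of 3 animals) of the 30 genes with the highest WT level (x axis, in order of that level), with WT as circles and HIF2αM3 as squares. Timp3 lies far above the rest, followed by type IV collagen chains, and the fibrillar chains Col1a1, Col3a1 and Col1a2 lie near 2 RPKM.

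Fibrillar collagens held 1 of the 3 higher genes. Of 9 tested, Col5a3 was higher (11.1%, against 3.75% of all genes called), none was lower and 8 did not pass. The median log2 fold change of the 9 was 0.41. Col5a3 encodes the α3 chain of type V collagen, which helps to start fibrils. It was at 3.09, 3.52 and 3.75 CPM in WT 1, 2 and 3 and at 4.92, 4.76 and 5.38 CPM in 17-51, 17-53 and 17-56, the order in which values are given from here on. All HIF2αM3 animals lay above all WT animals, although kidney 1 of WT 3 (4.68 CPM) lay above 2 HIF2αM3 libraries. This gave a log2 fold change of 0.54 ± 0.11 (SE, edgeR adjusted p = 0.0464). The call was lost in each of the 6 settings that left out 1 animal, where the log2 fold change was 0.46 to 0.59. Those settings called between 0.0559% and 7.87% of all genes. It was also lost without the 2 kidneys named above (0.52, edgeR adjusted p = 0.0561).

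Col27a1, a fibrillar chain best known from cartilage, had the lowest log2 fold change of all the genes. Its levels were 86.0, 61.0 and 82.2 CPM in the WT animals and 53.2, 37.8 and 30.7 CPM in the HIF2αM3 animals. The groups did not overlap in any library, with 59.1 to 87.2 CPM in WT and 26.5 to 54.2 CPM in HIF2αM3. At -0.92 ± 0.22 (SE) the difference missed the threshold (edgeR adjusted p = 0.0660), and DESeq2 called it (adjusted p = 0.000143). It was -0.87 without the 2 kidneys. Markers of bone and cartilage were near 0. The 3 of 6 with a row in the table summed to 0.320 to 0.696 CPM in WT and 0.119 to 0.365 CPM in HIF2αM3 libraries. Comp, the 1 of them tested, was at 0.495, 0.480 and 0.310 CPM in WT and 0.246, 0.268 and 0.141 CPM in HIF2αM3. These did not overlap (16.5% of all genes lay below in this way), and came from 77 and 39 reads (-0.95 ± 0.34, edgeR adjusted p = 0.142).

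Col11a2, another chain known from cartilage, was at 0.772, 0.525 and 0.574 CPM in WT and 0.400, 0.396 and 0.211 CPM in HIF2αM3, from 111 and 59 reads. The log2 fold change was -0.89 ± 0.31 (SE, edgeR adjusted p = 0.135). Col24a1 pointed the other way, with 1.13, 0.630 and 1.01 CPM in WT and 1.63, 1.55 and 1.32 CPM in HIF2αM3 (0.70 ± 0.24, edgeR adjusted p = 0.128). Both sets of animals were separated without overlap. Col5a1, the major type V chain, had a log2 fold change of 0.49 ± 0.16 (edgeR adjusted p = 0.124), also without overlap, and was called by DESeq2 (adjusted p = 0.0410). Col5a2 was at -0.09 ± 0.26, and was -0.32 without WT 1 and 0.080 without WT 2.

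The chains of type I and type III collagen, which make up the bulk of fibrotic scar, did not pass. Col1a1 was at 12.8, 27.9 and 39.0 CPM in WT and 22.2, 24.03 and 48.1 CPM in HIF2αM3 (log2 fold change 0.24 ± 0.45, edgeR adjusted p = 0.780). Col1a2 was at 23.3, 44.0 and 51.7 CPM against 40.6, 44.9 and 72.4 CPM (0.41 ± 0.33, edgeR adjusted p = 0.490). Col3a1 was at 10.3, 21.7 and 41.3 CPM against 26.4, 29.1 and 66.9 CPM (0.74 ± 0.55, edgeR adjusted p = 0.451). The groups overlapped for all 3, WT 1 being the lowest animal and 17-56 the highest each time.

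Their 17-56 values came mostly from kidney 2. Col1a1 was at 76.1 CPM there and 26.0 CPM in kidney 1, and Col3a1 at 102.7 and 38.7 CPM. Without the 2 kidneys the Col1a1 log2 fold change changed sign, from 0.24 to -0.17, that of Col1a2 was 0.13 and that of Col3a1 was 0.32. Without WT 1 the 3 values were -0.09, 0.13 and 0.37. Relative to Col1a1, Col3a1 was higher in the HIF2αM3 animals. The RPKM ratio of Col3a1 to Col1a1 was 0.648, 0.630 and 0.851 in WT and 0.990, 0.972 and 1.11 in HIF2αM3, with no overlap, 0.710 ± 0.123 against 1.02 ± 0.0757 (SD, n = 3). With 3 animals against 3 an exact permutation test cannot go below 0.10, and none was run on the ratio, which was picked after the values were seen. The Col1a1 to Col1a2 ratio overlapped, at 1.34 ± 0.211 and 1.22 ± 0.151.

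Fibril-associated collagens held the other 2 higher genes. These molecules sit on the surface of fibrils and have interruptions in the triple helix. Of 6 tested, Col16a1 and Col19a1 were higher (33.3%, against 3.75% of all genes called), none was lower and 4 did not pass. The median of the 6 was 0.64. Col16a1 was at 6.37, 8.90 and 8.26 CPM in WT and 14.2, 11.9 and 12.3 CPM in HIF2αM3. Every HIF2αM3 library (10.8 to 14.6 CPM) was above every WT library (5.83 to 9.13 CPM). Its log2 fold change was 0.70 ± 0.13 (SE, edgeR adjusted p = 0.0406), and 0.65 without the 2 kidneys, where the edgeR adjusted p = 0.0675. Of the 6 settings without 1 animal the call held only without WT 2, where 7.87% of all genes were called.

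Col19a1, a chain of basement membrane zones and of muscle and nerve development, was at 3.21, 2.91 and 3.12 CPM in WT and 5.63, 6.19 and 4.04 CPM in HIF2αM3. The lowest HIF2αM3 library, at 3.69 CPM, was above the highest WT library, at 3.41 CPM, and here 17-56 was the lowest of the HIF2αM3 animals. The log2 fold change was 0.78 ± 0.16 (SE, edgeR adjusted p = 0.0475). It was the 1 call left without the 2 kidneys (0.82, edgeR adjusted p = 0.0336). Of the 6 settings without 1 animal the call held only without 17-56, where 0.984% of all genes were called.

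Col14a1 was about as far apart but varied more between WT animals. This chain, also called undulin, marks interstitial fibroblasts. It was at 18.0, 40.6 and 26.9 CPM in WT and at 54.6, 54.2 and 53.1 CPM in HIF2αM3, where the animals lay close together. All libraries were separated, with a WT maximum of 47.4 CPM and a HIF2αM3 minimum of 52.4 CPM. The log2 fold change of 0.92 ± 0.26 (SE) missed the threshold (edgeR adjusted p = 0.101) and passed in DESeq2 (adjusted p = 0.0494). Among the 6 settings without 1 animal it passed only without WT 2 (1.253, edgeR adjusted p = 0.0187), where 7.87% of all genes were called. Without WT 1 it was 0.67 (edgeR adjusted p = 0.119). Col12a1 was at 8.55, 10.1 and 11.1 CPM against 11.7, 11.5 and 21.1 CPM (0.57 ± 0.25, edgeR adjusted p = 0.211). Its high animal rested on kidney 2 of 17-56 (32.7 against 11.99 CPM in kidney 1), and without the 2 kidneys it was 0.22. Col20a1 was at 1.96, 1.51 and 1.29 CPM against 1.20, 1.09 and 1.04 CPM (-0.52 ± 0.20, edgeR adjusted p = 0.159). Col20a1 shares exon sequence with another annotated gene of that strand, which leaves its value uncertain. Col9a3 was at -0.18 ± 0.39 from 72 reads in all, and was 0.12 without 17-56.

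**Figure D3:**
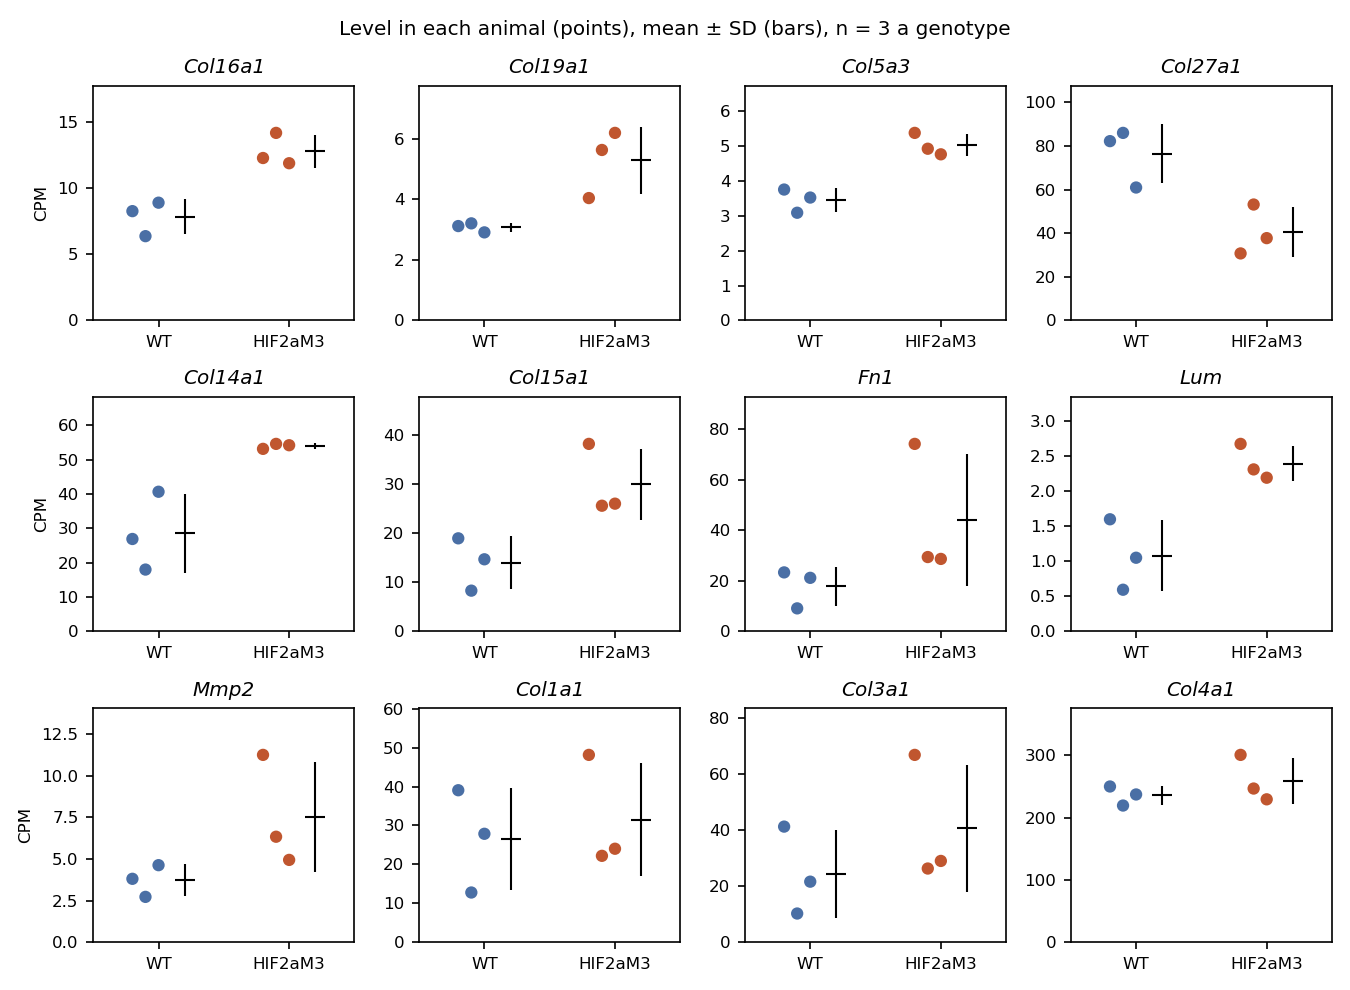
CPM (y axis, from 0) of 12 genes in each animal (points) with mean ± SD (bars, n = 3 a genotype), WT at left and HIF2αM3 at right in each panel. Col16a1, Col19a1, Col5a3 and Col14a1 do not overlap between genotypes, Col27a1 is separated in the other direction, and Col1a1 and Col3a1 overlap with 1 high HIF2αM3 animal.

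None of the 6 chains of type IV collagen passed in edgeR, and 2 had an unadjusted p under 0.05 (33.3%, against 24.9% of all genes). Their log2 fold changes ran from -0.16 for Col4a4 to 0.51 for Col4a6, with a median of 0.13. Col4a1 was at 219, 237 and 249.98 CPM in WT and 247, 229 and 301 CPM in HIF2αM3 (0.14 ± 0.11, edgeR adjusted p = 0.462). Col4a2, its partner, was at 175, 184 and 196 CPM against 194, 187 and 225 CPM (0.13 ± 0.08, edgeR adjusted p = 0.381). The groups overlapped for both chains. Without the 2 kidneys the values were 0.049 and 0.064, and without WT 1 they were 0.079 for each. Their RPKM ratio was nearly the same in every animal, 1.42 ± 0.0178 in WT and 1.45 ± 0.068 in HIF2αM3 (SD, n = 3). These genes also overlap in exons on opposite strands, so some of their reads cannot be told apart.

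Col4a3, a chain of the glomerular network, was at 346, 255 and 344 CPM in WT and 300.2, 287 and 279 CPM in HIF2αM3 (-0.13 ± 0.12, edgeR adjusted p = 0.547). Col4a4 was at 324, 241 and 280.3 CPM against 248, 266 and 243 CPM (-0.16 ± 0.11, edgeR adjusted p = 0.396). Both overlapped between the genotypes, and without WT 1 they were -0.06 and -0.05. Over the 6 settings that left out 1 animal, the lowest Col4a3 value was -0.26 and the lowest Col4a4 value -0.26. In 1 of the 6, Col4a3 was called lower (edgeR adjusted p = 0.0484). Col4a5, the X-linked chain, was at 37.9, 37.1 and 39.4 CPM against 40.1, 43.5 and 44.5 CPM, a small difference with no overlap (0.17 ± 0.06, edgeR adjusted p = 0.134). Col4a6, an X-linked chain of smooth muscle basement membranes, was at 1.15, 1.32 and 0.884 CPM against 1.72, 1.44 and 1.63 CPM (0.51 ± 0.19, edgeR adjusted p = 0.156). The summed RPKM of Col4a1 and Col4a2 over that of Col4a3, Col4a4 and Col4a5 was 1.19 ± 0.215 in WT and 1.44 ± 0.225 in HIF2αM3, and the animals overlapped. Podocytes make the glomerular network. In the podocyte list 0 of 8 markers passed, and 1 of 8 was above WT without overlap (12.5%, against 15.5% of all genes). The summed level was 569.8 to 785 CPM in WT animals and 639 to 666 CPM in HIF2αM3 animals. By library the sum was highest in WT 2 (820 CPM in kidney 1 and 740 CPM in kidney 2), the WT animal lowest in Col4a3 and Col4a4. The part of podocytes in the levels of these chains was not tested.

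Multiplexins link basement membranes to the tissue around them, and neither of the genes tested passed. Col15a1 was at 8.31, 14.7 and 19.0 CPM in WT and 25.6, 26.0 and 38.2 CPM in HIF2αM3, with all libraries separated (6.23 to 22.6 and 25.3 to 52.9 CPM). The log2 fold change was 1.09 ± 0.31 (SE, edgeR adjusted p = 0.0948), 0.88 without the 2 kidneys, and DESeq2 called it (adjusted p = 0.0370). Col18a1 was at 197, 186 and 210.0 CPM against 169, 169 and 205 CPM (-0.13 ± 0.09, edgeR adjusted p = 0.427). The groups overlapped. Kidney 2 of 17-56 was high for Col18a1, at 260.4 CPM, and without the 2 kidneys the log2 fold change was -0.26 ± 0.06 (edgeR adjusted p = 0.0670), with all HIF2αM3 animals below all WT animals.

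Type VI collagen, which forms beaded microfilaments around cells, showed 0 calls among 6 genes in edgeR (0 at an unadjusted p under 0.05), and 0 in DESeq2, with a median of 0.41. Col6a3 had the smallest p and a log2 fold change of 0.46 ± 0.23 (edgeR adjusted p = 0.259) with no overlap between animals, and it was 0.21 without WT 1. Col6a4 (0.51 ± 0.41) and Col6a5 (0.35 ± 0.63) had wide errors. Without WT 1 Col6a4 was 0.20. Col6a5 changed sign, to -0.10 without the 2 kidneys and to -0.85 without 17-56. Col6a1 (0.07 ± 0.27) and Col6a2 (-0.13 ± 0.28), the other chains of the standard trimer, were named after their values were seen. Without WT 1 they were -0.21 and -0.41, and Col6a2 was 0.15 without WT 3. Col6a6 was at 4.16 CPM in WT 1 but at 1.42 and 0.930 CPM in WT 2 and 3, against 3.48 to 4.96 CPM in HIF2αM3. Its log2 fold change was 1.02 ± 0.51 (edgeR adjusted p = 0.271) and passed without WT 1 (1.86, edgeR adjusted p = 0.0392).

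The remaining collagens showed no call. Among the transmembrane chains Col23a1 (0.42 ± 0.22), Col25a1 (0.27 ± 0.36) and Col13a1 (-0.01 ± 0.22) did not pass. Of the short-chain collagens, Col8a2 was at 0.0990, 0.135 and 0.186 CPM in WT and 0.215, 0.221 and 0.369 CPM in HIF2αM3 from 26 and 47 reads (0.92 ± 0.38, edgeR adjusted p = 0.186). Col8a2 was at 0.674 CPM in kidney 2 of 17-56 against at most 0.248 CPM in the other 5 HIF2αM3 libraries, and the log2 fold change was 0.49 without the 2 kidneys. Col8a1, a vessel wall and corneal chain, was highest in WT 1 and overlapped (-0.32 ± 0.36, and 0.028 without WT 1). Both others tested had values below 0, Col7a1, the anchoring fibril chain of skin (-0.60 ± 0.25, edgeR adjusted p = 0.188), and Col26a1 (-0.34 ± 0.18, edgeR adjusted p = 0.279).

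The 3 glycoproteins that organise matrix were all above 0 (50.9% of all genes were), with none past the threshold and a median of 0.75. Fibronectin (Fn1), the scaffold on which collagen is laid down, had the largest log2 fold change of the 48 genes, 1.30 ± 0.49 (SE, edgeR adjusted p = 0.166). It was at 9.12, 21.2 and 23.4 CPM in WT and 29.4, 28.7 and 74.2 CPM in HIF2αM3. No library overlapped, with at most 26.4 CPM in WT and at least 28.6 CPM in HIF2αM3. Much of the size lay in 17-56, at 48.2 CPM in kidney 1 and 107.3 CPM in kidney 2. The log2 fold change was 0.96 without the 2 kidneys. Over the 6 settings that left out 1 animal it ran from 0.69 to 1.54, and none of them called it.

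Periostin (Postn), a protein of injured and remodelling tissue, was at 1.07, 0.495 and 1.101 CPM in WT and 1.42, 1.47 and 1.58 CPM in HIF2αM3 (0.75 ± 0.29, edgeR adjusted p = 0.166). Sparc, a collagen-binding protein also called osteonectin, was at 101, 133 and 116 CPM against 129, 131 and 174 CPM. Its log2 fold change was 0.31 ± 0.14 (edgeR adjusted p = 0.237), or 0.16 without the 2 kidneys. Postn was separated between the animals and Sparc overlapped.

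The 3 small leucine-rich proteoglycans, which bind collagen fibrils and set their spacing, were also all above 0 (50.9% of all genes were). None passed the threshold, and the median was 0.54. Lumican (Lum) was at 0.594, 1.05 and 1.597 CPM in WT and 2.31, 2.19 and 2.67 CPM in HIF2αM3. Its log2 fold change was 1.13 ± 0.31 (SE, edgeR adjusted p = 0.0875), and DESeq2 called it (adjusted p = 0.0127). Dcn was at 11.7, 19.999 and 22.7 CPM against 26.0, 25.2 and 27.9 CPM (0.54 ± 0.22, edgeR adjusted p = 0.192). Both were separated in every library, but for Dcn only just. The highest WT library held 23.702 CPM of Dcn (kidney 1 of WT 3) and the lowest HIF2αM3 library 23.72 CPM (kidney 1 of 17-56). Bgn was at 137, 232 and 181 CPM against 226, 229.5 and 290.0 CPM, which overlap (0.44 ± 0.20, edgeR adjusted p = 0.223). WT 1 was the lowest animal for all 3, and without it Dcn was 0.30, Bgn 0.26 and Lum 0.84.

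Lysyl oxidases cross-link collagen and elastin. Neither passed. Loxl1 was at 13.99, 25.5 and 19.6 CPM in WT and 27.0, 26.4 and 29.1 CPM in HIF2αM3, without overlap (0.48 ± 0.20, edgeR adjusted p = 0.191). It was 0.28 without WT 1 and passed without WT 2 (0.70, edgeR adjusted p = 0.0408), where 7.87% of all genes were called. Lox overlapped and had a log2 fold change of 0.79 ± 0.42 (edgeR adjusted p = 0.291). Kidney 2 of 17-56 held 12.5 CPM of Lox against 4.53 CPM in kidney 1, and the log2 fold change was 0.32 without the 2 kidneys.

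The metalloproteinase and its inhibitors held no call in edgeR, 2 of the 4 having an unadjusted p under 0.05 (50%, against 24.9% of all genes). Mmp2, which encodes gelatinase A, was at 2.73, 4.63 and 3.81 CPM in WT and 6.34, 4.95 and 11.2 CPM in HIF2αM3 (1.00 ± 0.33, edgeR adjusted p = 0.131). Timp2, which inhibits Mmp2 and also assists its activation, was at 41.5, 63.9 and 52.0 CPM against 69.3, 67.5 and 86.1 CPM (0.50 ± 0.17, edgeR adjusted p = 0.130). Both were separated between animals, and DESeq2 called both (adjusted p = 0.0137 and 0.0202). Kidney 2 of 17-56 was at 17.3 CPM of Mmp2 and 109 CPM of Timp2, and without the 2 kidneys the values were 0.64 and 0.36.

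Timp1, an inhibitor induced by injury, was at 0.376, 0.660 and 1.101 CPM in WT and 0.554, 0.617 and 2.18 CPM in HIF2αM3, which overlap (0.65 ± 0.61, edgeR adjusted p = 0.554). Its 17-56 value came from 3.97 CPM in kidney 2 and 0.761 CPM in kidney 1, and it was -0.24 without the 2 kidneys. Timp3 was at 4066, 3011 and 4378 CPM against 3464, 3409 and 2995 CPM (-0.22 ± 0.14, edgeR adjusted p = 0.387). The groups overlapped.

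Kidneys of the same animal gave a measure of how far matrix levels vary within an animal. In 17-56, 19 of the 42 genes with a mean of at least 1 CPM were at least 1.5-fold higher in kidney 2 than in kidney 1 (45.2%, against 4.75% of all genes at that level), and 7 at least 2-fold (16.7%, against 1.21%). In WT 1, 9 of 42 were at least 1.5-fold higher in kidney 2 (21.4%, against 3.00%). The other 4 animals had between 0 and 2 such genes. Genes lower in kidney 2 are not in these counts. In WT 3, for example, the ratio of kidney 2 to kidney 1 was 0.635 for Col5a3 and 0.637 for Postn. In 17-51, whose kidney 2 was shallow, it was 0.349 for Col23a1. The median ratio of kidney 2 to kidney 1 was 1.396 in 17-56, 1.28 in WT 1 and between 0.892 and 1.11 in the others.

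No single gene differed consistently enough between kidney 1 and kidney 2 to be called. With the animal as a block in edgeR, 0 of 45 genes tested passed, against 17 of 19034 genes (0.0893%), and 6 had an unadjusted p under 0.05 (13.3%, against 8.45% of all genes). Col8a1 had the smallest p, with a log2 fold change of 0.32 ± 0.10 for kidney 2 over kidney 1 (edgeR adjusted p = 0.383). Lox was higher in kidney 2 in 6 of 6 animals (0.58 ± 0.19, edgeR adjusted p = 0.432). Left and right are not tied to kidney numbers in the labels.

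**Figure D4:**
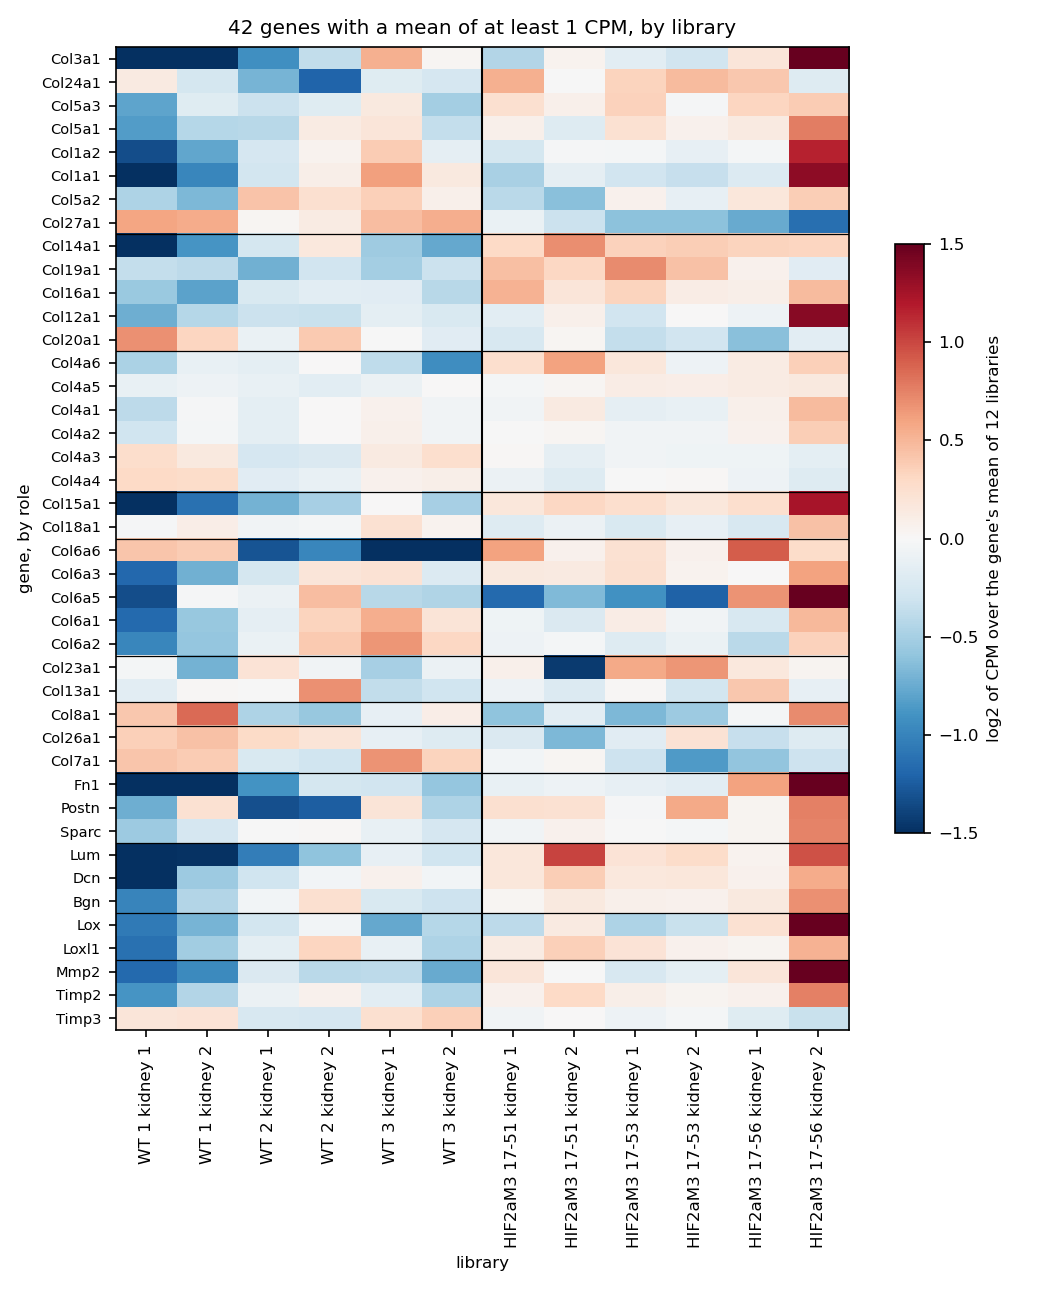
Level of the 42 genes with a mean of at least 1 CPM (rows, by role) in the 12 libraries (columns), as the log2 of CPM over the mean of the gene in all libraries, in red where higher and blue where lower. Kidney 2 of 17-56 is the reddest column and kidney 1 of WT 1 the bluest, and Col27a1 is blue in the HIF2αM3 libraries.

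Markers of the cell types that the slice could hold were set beside these genes. The summed level of 12 fibroblast and pericyte markers was 573 to 658 CPM in WT libraries and 771 to 872 CPM in HIF2αM3 libraries. Ly6a, a surface protein that endothelial cells also carry, made up the largest share of that sum, 311 ± 39.6 CPM in WT and 420.4 ± 24.6 CPM in HIF2αM3 animals (SD, n = 3). Without it, a split made after the values were seen, the other 11 summed to 273 to 336 CPM in WT and 357 to 429 CPM in HIF2αM3 libraries. None of the 12 passed in edgeR and 5 were called by DESeq2, which called 10.5% of all genes. An unadjusted p under 0.05 was found for 6 above WT and 2 below, Pi16 and Cspg4, named because they make up that count (66.7% in all, against 24.9% of all genes), and the median log2 fold change was 0.40. It was 0.24 without WT 1. Ly6a had the smallest p (0.44 ± 0.10, SE, edgeR adjusted p = 0.0581). Of 10 endothelial markers all were above 0 (50.9% of all genes were) and 3 were higher (30%, against 1.93% of all genes), Kdr (0.70 ± 0.12), Erg (0.62 ± 0.12) and Emcn (0.57 ± 0.12), with sums of 472 to 750.2 CPM in WT and 743 to 791 CPM in HIF2αM3 libraries. The 8 mesangial and smooth muscle markers held 1 higher gene, the integrin gene Itga8, and 1 lower, renin (Ren1, -0.76 ± 0.09), which is 25% against 3.75% of all genes, and had a median of -0.11, with sums of 213 to 246 and 159.8 to 223 CPM.

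Leukocyte markers summed to 63.0 to 129.9 CPM in WT libraries, lowest in WT 1, and to 116 to 123 CPM in HIF2αM3 libraries, except kidney 2 of 17-56 at 189 CPM. Of 8, 1 was higher, Csf1r (0.58 ± 0.10), 12.5% against 1.93% of all genes. Proximal tubule markers, which define the bulk of the cortex slice, summed to 25512 to 32373 CPM in WT and 25772 to 32342 CPM in HIF2αM3 libraries, with 1 of 8 higher (Slc5a12) and 1 lower (Slc22a6), 25% against 3.75% of all genes. Adrenal and fat markers summed to 3.99 to 5.39 CPM apart from kidney 2 of WT 1 at 13.1 CPM. The part of cell makeup in the matrix gene differences was not tested.

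Other genes of the matrix pathway were described in 6 lists, which were not tested against each other. Of 25 tested genes of collagen synthesis and processing, 2 were lower (8%, against 1.82% of all genes lower and 3.75% called), none was higher and 23 did not pass, with a median of 0.07. Serpinh1, the collagen chaperone HSP47 of the endoplasmic reticulum, was at 87.9, 90.8 and 86.2 CPM in WT and 71.1, 67.7 and 74.9 CPM in HIF2αM3 (-0.31 ± 0.06, SE, edgeR adjusted p = 0.0343). Plod1, a lysyl hydroxylase that prepares collagen for cross-links, was at 52.3, 45.4 and 45.8 CPM against 36.8, 35.9 and 39.0 CPM (-0.36 ± 0.07, edgeR adjusted p = 0.0412). All 3 HIF2αM3 animals lay below the WT animals for both genes. Both calls held without the 2 kidneys. Serpinh1 in kidney 2 of 17-56 (88.1 CPM, against 64.8 CPM in kidney 1) lay within the WT library range of 82.2 to 91.5 CPM.

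Of 16 laminins, nidogens and basement membrane proteoglycans, 5 were higher and none lower (31.2%, against 3.75% of all genes). Hspg2, which encodes perlecan, was at 52.7, 67.6 and 57.3 CPM in WT and 85.0, 88.8 and 94.3 CPM in HIF2αM3 (0.59 ± 0.09, edgeR adjusted p = 0.0265). The nidogens, which bridge laminin and type IV collagen, were higher for both genes, Nid1 from 44.7 ± 9.13 to 77.7 ± 10.3 CPM (SD, n = 3) and Nid2 from 19.6 ± 1.89 to 26.8 ± 1.91 CPM. The laminin chain gene Lama4 of vessels had a log2 fold change of 0.93 ± 0.20, and Lamc1, the γ1 chain of most laminins, named here because it makes up the count, one of 0.27 ± 0.06. Hspg2, Nid1 and Nid2 passed without the 2 kidneys, and Lama4 and Lamc1 did not (edgeR adjusted p = 0.0601 and 0.0801).

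Of 27 elastic fibre and other glycoprotein genes 2 were higher (7.41%, against 3.75% of all genes called), none was lower and 25 did not pass. These were Ltbp1 (1.00 ± 0.19) and Ltbp4 (0.73 ± 0.14), which hold latent TGF-β in the matrix. Of 12 TGF-β signalling genes 1 was higher (8.33%, against 3.75% called), the ligand gene Tgfb2, at 2.04, 3.10 and 2.22 CPM in WT and 5.54, 4.87 and 5.15 CPM in HIF2αM3 (1.07 ± 0.17, edgeR adjusted p = 0.0265). Ltbp1 and Tgfb2 passed without the 2 kidneys and Ltbp4 did not (edgeR adjusted p = 0.0614). The medians of these lists were 0.36 and 0.14.

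Of 17 proteases and inhibitors 3 were higher (17.6%, against 3.75% of all genes called), none was lower and 14 did not pass, with a median of 0.45. Plau, which encodes urokinase, was at 275, 360.3 and 425 CPM in WT and 687, 591 and 847 CPM in HIF2αM3 (1.00 ± 0.19, edgeR adjusted p = 0.0419). Adamts5, an aggrecanase, went from 28.1 ± 5.72 to 51.8 ± 3.49 CPM (SD, n = 3), and Reck, a membrane inhibitor of metalloproteinases, from 6.26 ± 0.478 to 8.55 ± 0.478 CPM. Plau and Adamts5 passed without the 2 kidneys and Reck did not (edgeR adjusted p = 0.0606).

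Of 17 matrix receptors 2 were higher (11.8%, against 3.75% of all genes called), none was lower and 15 did not pass, with a median of 0.21. Both were integrin α chains, Itga9 (0.71 ± 0.12, edgeR adjusted p = 0.0302) and Itga8 (0.73 ± 0.14, edgeR adjusted p = 0.0431), of which Itga8 also counts among the mesangial markers. Without the 2 kidneys Itga9 passed and Itga8 did not (edgeR adjusted p = 0.0681). Each of the called genes of these lists was called in 0 to 2 of the 6 settings that left out 1 animal. Those settings called between 0.0559% and 7.87% of all genes.

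**Figure D5:**
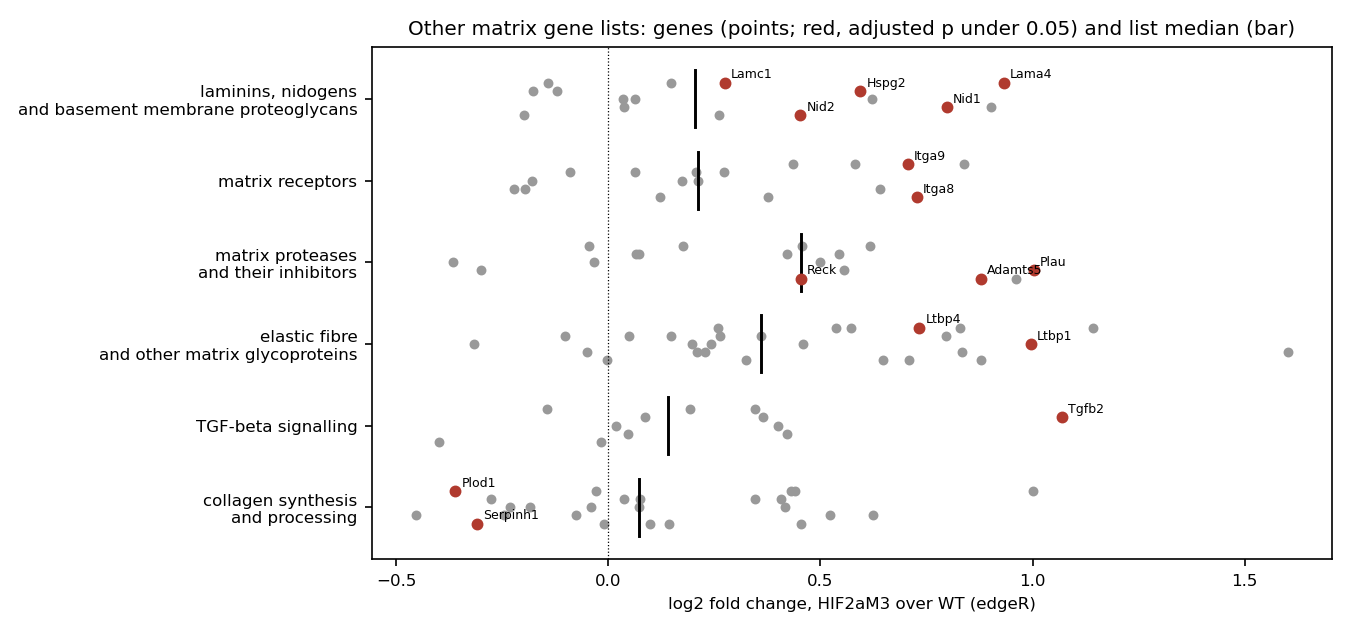
Log2 fold change of HIF2αM3 over WT (x axis, edgeR) for the tested genes of 6 other matrix gene lists (rows), each point a gene, red where the adjusted p was under 0.05, with a bar at the list median. The red points lie above 0 in 5 lists and below 0, for Serpinh1 and Plod1, in collagen synthesis and processing.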

How the data were processed

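The authors deposited raw read counts per Ensembl gene and library, and RPKM values, in 1 table, per the file headers. Per the submitters' processing notes, reads were placed on mm9. The sources used here do not give the aligner, annotation release or strand use. The RPKM values deposited by the authors were made after 1 read had been added to each count, as the values show, so the lowest RPKM do not mean reads. Symbols came from GENCODE M21 (GRCm38) and matched 24630 IDs, and the others held 1.18% of counts.

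Counts of both kidneys were summed per animal, since the animal is the replicate, and tested with edgeR 4.0.16 (R 4.3.3): quasi-likelihood fit, TMM scaling, filterByExpr, robust dispersion, two-sided, adjusted by Benjamini-Hochberg over 19564 genes at 0.05. SE is the absolute log2 fold change over the root of F. CPM are TMM-scaled. RPKM were averaged over an animal's kidneys. The kidney test used 12 libraries with the animal as a block. Alternatives included DESeq2 1.42.0 and limma 3.58.1 on log2(RPKM + 1). Both tests were run on simulated data with the same dispersion for every gene, no animal effect and no outlying library. That run does not show how they behave with libraries that stand apart. No 2 libraries were alike within sampling noise (lowest chi-square per degree of freedom 1.73). Library totals ran from 4161829 to 43499743.

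The 56 genes, their role groups and the other lists were chosen with earlier results of these data known. Values in all animals are given for genes past the threshold, for genes without overlap and with a log2 fold change of 0.5 or more in size, for the 12 highest by RPKM, and for Col1a1, Col1a2, Col3a1, Col4a1 to Col4a6, Fn1 and Timp1. Up to 4 others are named per role group, by p. From other lists up to 4 called genes are named, or the 1 with the smallest p. The settings without kidney 2 of 17-51 and 17-56, and without each library in turn, were added after the data were seen.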

Additional observations from a re-analysis of the deposited data

Results flagged for a closer look

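Within each genotype the 6 libraries of each tested gene were examined for a value far from the other 5 (a gap over range above the critical value of the Dixon test), which made 96 sets, of which 20 held one. For independent values chance gives about 1 in 20, but kidneys of an animal are not independent, so the number is not compared with chance.

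Kidney 2 of 17-56 was the high library in 18 of the 20. Among fibrillar chains it held 76.13 CPM of Col1a1, 105.29 of Col1a2, 102.67 of Col3a1 and 19.637 of Col5a1. Among the other collagens it held 252.55 CPM of Col4a2, 33.88 of Col6a3, 32.65 of Col12a1, 52.922 of Col15a1, 260.44 of Col18a1, 21.462 of Col8a1 and 0.67442 of Col8a2. Of the other matrix proteins it held 107.31 CPM of Fn1, 223.07 of Sparc, 351.37 of Bgn, 12.497 of Lox, 17.337 of Mmp2, 109.41 of Timp2 and 3.9672 of Timp1. For Col1a1 the other 5 HIF2αM3 libraries lay between 21.4 and 27.5 CPM, and for Fn1 between 28.6 and 48.2 CPM.

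That library also held 58.6 CPM of Havcr1, 15.6 of Lcn2, 3.61 of Krt20 and 3.33 of Sox9, injury genes chosen after the values were seen, at most 8.77, 1.78, 0.961 and 0.793 CPM in the other 5. The part of tubular injury in its matrix values was not tested.

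The remaining sets were Col14a1 at 68.827 CPM in kidney 2 of 17-51, the shallow library, against 52.4 to 54.8 CPM, and Col13a1 at 1.7376 CPM in kidney 2 of WT 2, against 0.836 to 1.09 CPM.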

How the results depend on the processing

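The median log2 fold change of the matrix genes was positive in all 28 alternatives, between 0.1243 (limma on log2(RPKM + 1), whose added 1 shrinks low genes) and 0.5574. Of the 48 genes, 38 kept their sign in every alternative that tested them. The number called did not hold. DESeq2 called 9 higher and 1 lower (2058 of all genes), and 12 libraries as separate samples 13 higher and 4 lower (4829 of all). Kidney 2 alone gave 0 higher (337 of all), limma 0 (114 of all), and the setting without kidney 2 of 17-51 and 17-56 gave 1. Leaving out 1 animal or library gave 0 to 4 higher, 0 to 1 lower, 11 to 1549 of all genes and medians from 0.1662 (without 17-56) to 0.5574. Col16a1 was called in 18 of 28 alternatives, Col19a1 in 14 and Col5a3 in 10, all positive throughout.

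For kidney 2 against kidney 1, the animal block gave 17 genes, no block 0 and the setting without 17-51 gave 10, with 0 matrix genes in each. No paired analysis was possible because the animals are numbered separately in the genotypes. With 3 animals a genotype, genes at few reads such as Col8a2 (26 and 47) are limited by depth.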
